A study of Mus musculus with 6 samples.

Results

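The regions described here were 370 distal peaks of a Bapx1 library of the mouse embryo, of 2815 peaks called in the E12.5 vertebral column. They are called peaks with high false discovery rates, given below, and binding was not shown for each of them. They were selected on 4 properties. The summit lay more than 25 kb from every annotated transcript start, no Bapx1 peak of NIH3T3 cells was centred within 1 kb, the peak was on an autosome, and the summit with 50 bp to either side held at least 1 match on either strand to the six-base motif T(G/A)AGTG. Of 2801 autosomal embryo peaks, 1263 were over 25 kb from a start, and 1207 of these had no NIH3T3 peak. The motif was present in the 370 regions described here and absent from the other 837, which serve below as the distal regions lacking the motif. The peaks, the distance, the absence of a NIH3T3 peak and the motif therefore describe the choice and are no result.

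Bapx1 (also Nkx3-2) is an NK family homeodomain transcription factor, needed for the formation of the vertebral bodies from the sclerotome, the part of the somite that gives rise to cartilage around the notochord. It is known mainly as a repressor that keeps cartilage precursors on the chondrocyte path. Homeodomain proteins of the NK class are known to bind TAAGTG and motifs like it, and developmental factors often occupy enhancers far from the genes they act on.

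The study used chromatin immunoprecipitation and sequencing with 1 library per condition. In CD1 embryos, the endogenous Bapx1 gene carried an S-peptide tag placed by homologous recombination, and vertebral columns of many E12.5 embryos were pooled for the anti S-Peptide antibody. The control was the same antibody on pooled wildtype vertebral columns without a tag. In NIH3T3 cells, a mouse fibroblast line that is not cartilage, V5-tagged Bapx1 was overexpressed from pcDNA6 and precipitated with a V5 antibody, and the V5 control is titled as an input. Its labels describe it as a pulldown with the V5 antibody, in one place from cells with empty vector and in another from wild type cells. A Sox9 library and its IgG control were not analysed here. These libraries measured DNA and no RNA, so the tissue labels could not be checked against expression. The 4 libraries used here held 24855032 tags for embryo Bapx1, 20704235 for the wildtype control, 9124697 for NIH3T3 Bapx1 and 13327426 for V5. With 1 library per condition no spread between embryos or cultures could be measured, and each test below compares sets of regions, matches or tags of these libraries, not conditions.

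The 6 regions with the smallest p are printed because they stand first when the 370 regions are ranked by p. Each sequence is the summit base with 50 bp to either side, on the + strand of mm9, with matches to the motif in capitals. CACTCA and CACTTA are the motif read on the other strand.

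Aldh1a2 intron, chr9:71124312-71124412: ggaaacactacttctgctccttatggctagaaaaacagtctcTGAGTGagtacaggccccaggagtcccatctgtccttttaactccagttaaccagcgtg
Pkd1l1 intron, chr11:8734296-8734396: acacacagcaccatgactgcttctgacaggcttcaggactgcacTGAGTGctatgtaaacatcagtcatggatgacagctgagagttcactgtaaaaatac
Sema3d intron, chr5:12468071-12468171: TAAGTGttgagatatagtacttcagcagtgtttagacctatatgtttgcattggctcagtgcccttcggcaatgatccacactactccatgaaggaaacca
upstream of Rxra, chr2:27489754-27489854: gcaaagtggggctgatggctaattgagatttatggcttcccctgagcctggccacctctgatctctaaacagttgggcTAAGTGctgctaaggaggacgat
upstream of Arg1, chr10:24678666-24678766: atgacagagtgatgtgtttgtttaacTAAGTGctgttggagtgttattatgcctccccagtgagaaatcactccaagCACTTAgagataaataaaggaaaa
upstream of Lama4, chr10:37841870-37841970: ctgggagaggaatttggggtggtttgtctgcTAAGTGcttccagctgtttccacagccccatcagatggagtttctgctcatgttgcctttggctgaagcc

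The match of the Aldh1a2 and Pkd1l1 regions lay 5.5 and 3.5 bp from the summit, whereas that of the Sema3d region lay 47.5 bp away, at the edge of the window. The region upstream of Arg1 held 2 TAAGTG matches on opposite strands, at -21.5 and 29.5 bp from the summit.

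Of the regions with the most matches, 2 are printed to show the sequence in which several matches occurred together.

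upstream of Rreb1, chr13:37750284-37750384: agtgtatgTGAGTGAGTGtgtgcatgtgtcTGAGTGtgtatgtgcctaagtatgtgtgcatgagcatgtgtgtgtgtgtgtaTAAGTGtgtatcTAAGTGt
downstream of Cbln4, chr2:171634344-171634444: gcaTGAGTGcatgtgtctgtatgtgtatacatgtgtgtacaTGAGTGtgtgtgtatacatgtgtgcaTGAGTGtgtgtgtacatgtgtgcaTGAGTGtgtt

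Both were rich in alternating G and T, and held 5 and 4 matches. Their embryo peaks had 17 and 21 tags in the authors' list, where the median of the 370 regions was 21. Within 200 bp of the summit they had 18 and 25 embryo Bapx1 tags, but also 10 and 8 tags of the wildtype control. The wildtype median of the 370 regions was 5. A window with at least 4 GT or CA repeats in a row was found in 36 of the 370 regions (9.73%) and in 77 of the 837 regions lacking the motif (9.2%).

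Of the 6 regions with at least 9 NIH3T3 Bapx1 tags, 3 are printed because they bear on the comparison with fibroblasts below. They include both regions with 10 tags and 1 of the 4 with 9.

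downstream of Rgs3, chr4:62422107-62422207: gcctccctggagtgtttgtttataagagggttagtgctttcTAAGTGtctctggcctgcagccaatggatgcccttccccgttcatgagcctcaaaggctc
Prkch intron, chr12:74876152-74876252: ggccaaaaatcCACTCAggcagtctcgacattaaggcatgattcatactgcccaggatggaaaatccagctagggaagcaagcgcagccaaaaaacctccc
upstream of Armc2, chr10:41847787-41847887: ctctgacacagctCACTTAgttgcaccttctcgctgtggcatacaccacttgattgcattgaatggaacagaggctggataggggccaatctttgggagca

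The authors' peak list describes how strong these regions were, and these values chose them in part. The count of Bapx1 tags per peak had a median of 21 and ran from 12 to 159, the fold over the local background had a median of 9.02 (4.23 to 49.8), and the peak length had a median of 308 bp. For 10 times -log10(p), the median was 74.5 and the range 50.1 to 827. The authors' false discovery rate (FDR), which MACS takes from the peaks found with ChIP and control exchanged, was high throughout, with a median of 61.3% and a lowest value of 16.7%. None of the 370 regions had an FDR of 5% or less, and 55 had one of 50% or less. A p of 1e-10 or less was given to 118 regions (31.9%, 95% exact binomial interval 27.2 to 36.9) and to 184 of the 837 lacking the motif (22%).

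Just inside the distance limit were regions at 25432, 25437 and 25557 bp from a start, with 42, 52 and 14 tags, and just outside it were peaks at 24737, 24659 and 24648 bp, with 17, 17 and 14 tags. For the NIH3T3 condition, the nearest peak centres left in were at 1017, 1323 and 1405 bp (13, 13 and 22 tags) and those left out at 935, 925 and 729 bp (31, 13 and 18 tags). For the motif, the outermost matches that counted were centred 47.5 bp from the summit, among them those of regions with 91, 33, 31 and 28 tags. The nearest that did not count were centred at 48.5 bp, among them those of peaks with 27, 12 and 15 tags. These peaks were picked as the nearest to each limit, so the closeness of their distances follows from the choice.

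Tags were then counted in all 4 libraries within 200 bp of each summit. The embryo Bapx1 library had a median of 23 tags per region (12 to 139), and the wildtype control a median of 5 (0 to 24). Scaled to the tags on the chromosomes, the summed ratio of Bapx1 to wildtype was 4.49 (95% exact binomial interval 4.27 to 4.72), against 3.96 (3.83 to 4.1) in the regions lacking the motif. This contrast called the peaks, so it is given as a description. The interval covers counting error only.

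**Figure D1:**
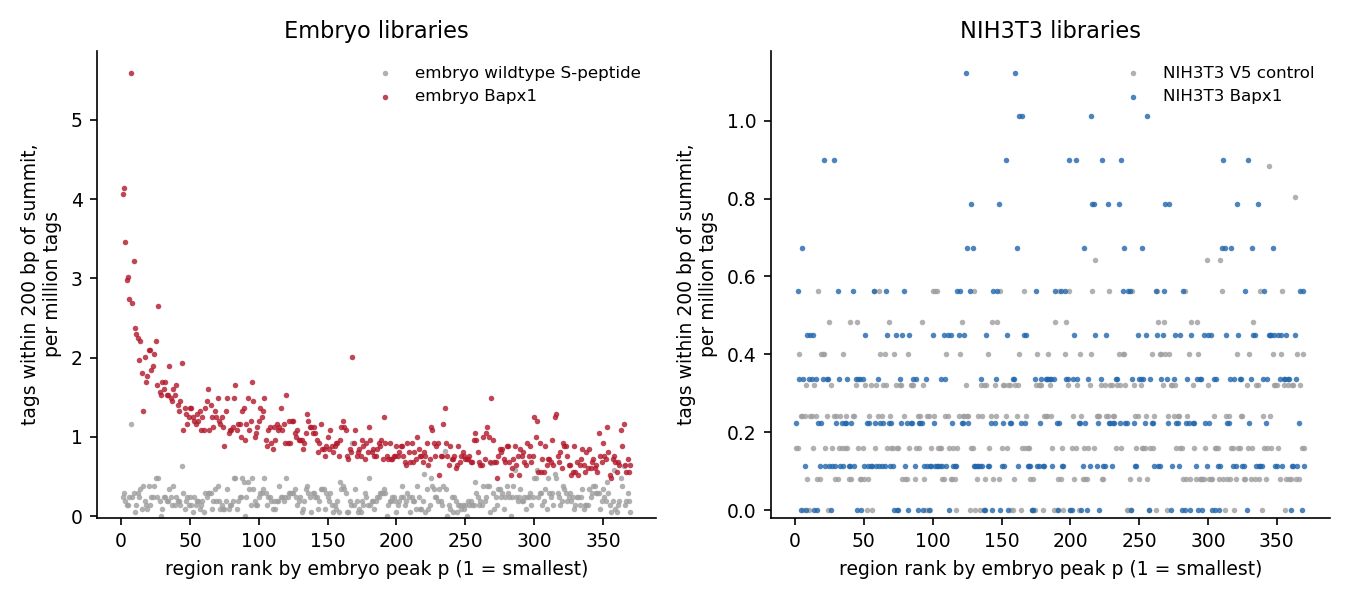
Tags within 200 bp of the summit, per 1000000 tags of the library, for each of the 370 regions ranked by the p of the embryo peak, with each point 1 region in 1 library. Embryo Bapx1 tags (red) fell from the first ranks on and mostly stood above wildtype tags (grey), while NIH3T3 Bapx1 tags (blue) and V5 tags (grey) overlapped along the whole ranking.

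In single regions the embryo values differed widely. The strongest by p was in an intron of Aldh1a2 (chr9:71124118-71124639), the gene of the main enzyme of retinoic acid synthesis in the embryo. It had 104 embryo Bapx1 tags by the authors' count and, within 200 bp of the summit, 5 wildtype, 2 NIH3T3 Bapx1 and 2 V5 tags, and lay 60766 bp downstream of the start. The second was in an intron of Pkd1l1 (chr11:8734174-8734592), a polycystin family gene, with 103, 6, 5 and 2 tags in the same order of libraries. The third was in an intron of Sema3d (chr5:12467845-12468400), which encodes a secreted guidance cue, with 86, 4, 3 and 5 tags. In these 3 regions the embryo library stood far above its control, while both NIH3T3 libraries stayed at 5 tags or fewer. The first follows from the ranking by p, and the choice of regions without a NIH3T3 peak favours the second. These counts are not scaled, and the NIH3T3 libraries were smaller than those of the embryo.

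The fourth lay 42156 bp upstream of Rxra (chr2:27489561-27490108), which encodes a retinoid X receptor, and had 74, 3, 0 and 3 tags. The fifth lay 31440 bp upstream of Arg1 (chr10:24678546-24678952), which encodes an arginase, and had 75, 3, 6 and 3 tags. The sixth lay 843401 bp upstream of Lama4 (chr10:37841707-37842164), which encodes a laminin chain of basement membranes, and had 68, 5, 3 and 0 tags. Lama4 was its nearest protein-coding start, and the nearest start of any transcript was 57339 bp away. The region with the most tags in the authors' list was in an intron of Adamts12 (chr15:11109311-11110013), an extracellular protease gene. Within 200 bp of its summit it had 139 embryo Bapx1 tags, but also 24 wildtype tags, the highest wildtype count of all 370 regions. The remaining 3 of the 10 strongest had Sik1 (chr17:31930561-31931075), Enc1 (chr13:98136576-98137188) and Rhobtb1 (chr10:68472077-68472434) as nearest protein-coding genes, with 67, 80 and 59 embryo tags against 5, 6 and 1 in the wildtype.

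The motif was searched as TGAGTG and TAAGTG on both strands. It was found in 30.7% of the 1207 distal embryo-only summit windows (28.1 to 33.3) and in 31.3% of all embryo peaks. Of 2414 windows of the same length placed 500 bp to either side of those 1207 summits, 10.6% (9.36 to 11.9) held a match. The study's own motif search ran on these peaks, so the higher share at the summits is not independent evidence and was not tested. The 370 regions held 440 matches. In 313 regions there was 1 match, in 49 there were 2, in 5 there were 3, in 1 there were 4, and in 2 there were 5.

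Among the matches, 262 read TGAGTG and 178 TAAGTG. The share of TGAGTG was 59.5%, against 61% of the 277 matches in the flanking windows (two-sided Fisher's exact test over matches, p = 0.754). The base before the match was C or T in 63.2% of matches and 54.2% in the flanks (exact p = 0.019, 0.0569 after Benjamini-Hochberg adjustment over 3 tests of bases). A G followed the match in 29.3% against 23.5% (exact p = 0.101, adjusted 0.151). The other bases after it were A in 14.5% against 30%, C in 25.7% against 20.2% and T in 30.5% against 26.4%. They were not tested. The choice of regions did not use these bases. None of the 3 tested differences passed at 0.05 after adjustment in this form. With flanks at 1000 bp, protein-coding starts only or the nearest match per window, the bases before and after the match both passed (adjusted p of 0.000566 to 0.014 for C or T before, 0.00671 to 0.0275 for G after). Among regions with a p of 1e-10 or less, C or T stood before 70.4% of matches, against 53.4% (adjusted exact p = 0.0673), and the share followed by G was lower than in the flanks, 28.9% against 34.2%.

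A concentration of the matches at the summit itself was not detectable. The share centred within 10 bp of it was 23%, against 20.6% for the centres of flanking windows (Fisher's exact test, p = 0.517), and the direction turned with flanks at 1000 bp. The centres lay to the left of the summit, at lower coordinates, in 59.5% of matches (54.8 to 64.2), with a median of -6.5 bp. In the flanks this share was 50.5% (44.5 to 56.6).

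**Figure D2:**
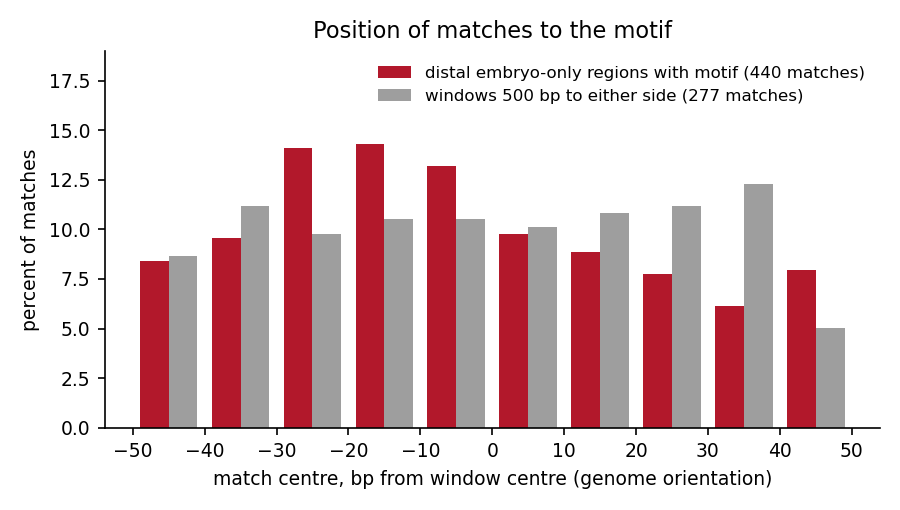
Percent of matches to the motif by distance of the match centre from the window centre, in bins of 10 bp along the genome, for the 440 matches of the 370 regions (red) and the 277 matches of windows 500 bp to either side of distal summits (grey). The 3 tallest bins of the regions lie between -30 and 0 bp and hold 14.1%, 14.3% and 13.2% of the matches, and the flanks show no such group.

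In the 57 regions with 2 or more matches there were 70 pairs of neighbouring matches. Of these, 52 pointed the same way, 12 diverged and 6 converged. The starts were a median of 28 bp apart (4 to 91), and 14 pairs were at most 12 bp apart. Windows with GT or CA repeats made up 9 of these 57 regions.

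Around a single match the tags of the embryo Bapx1 library were ordered by strand. Over the 313 regions with 1 match, the 5' ends on the + strand were most frequent 60 to 40 bp to the left of the match (510 tags per 20 bp) and those on the - strand 40 to 60 bp to its right (491 tags). These were 6.9 and 6.61 times the mean of the outer bins. A tag is called facing here if its 5' end lay within 120 bp of the match and it read towards the match. Facing tags made up 76.3% of 6403 embryo Bapx1 tags (75.2 to 77.3) and 55.7% of 898 wildtype tags (52.4 to 59). This order follows from the choice of regions by summit and motif.

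**Figure D3:**
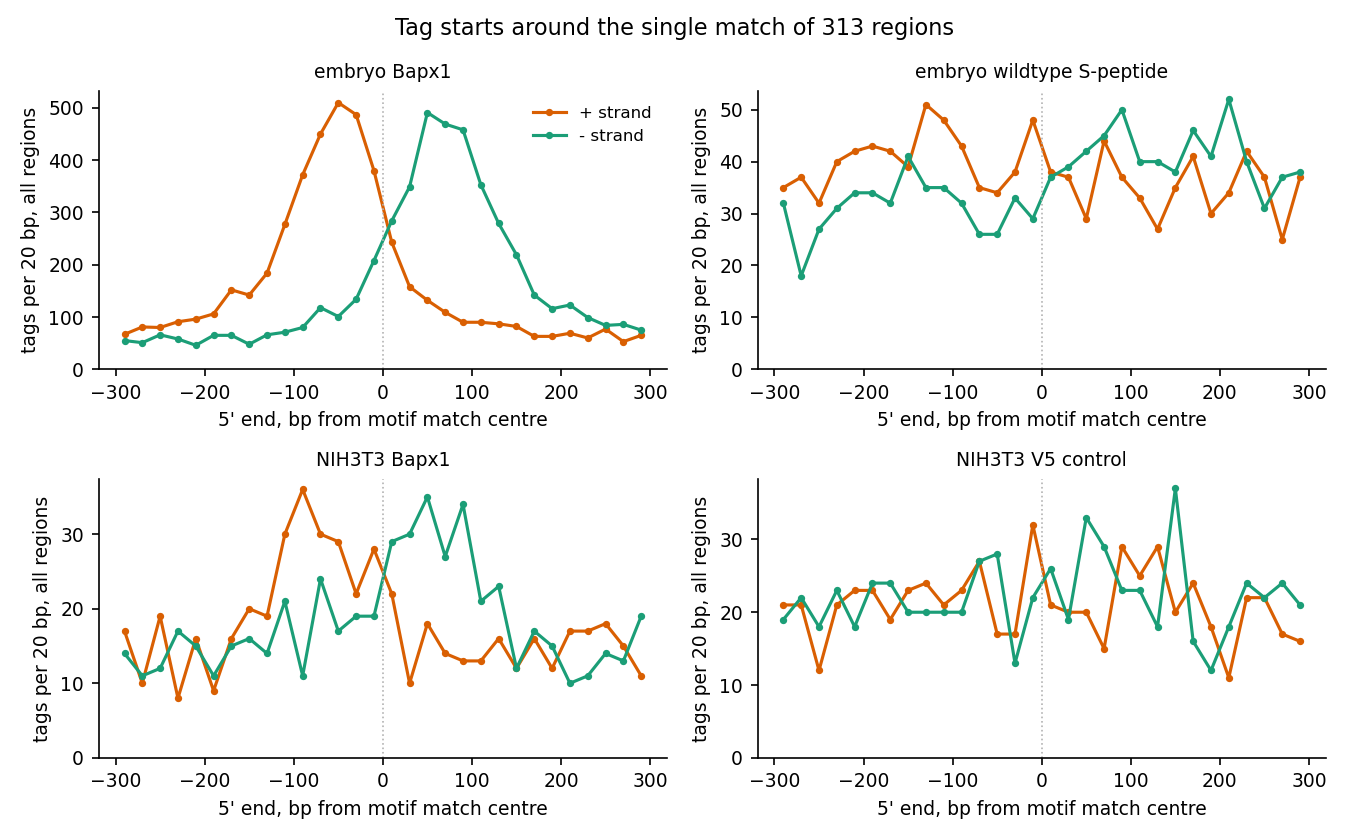
Number of 5' ends per 20 bp on the + strand (orange) and the - strand (green) against distance from the centre of the match, summed over the 313 regions with 1 match, with 1 panel per library. In embryo Bapx1 both strands form separate peaks on either side of the match, NIH3T3 Bapx1 has lower peaks to the left (+ strand, highest at -100 to -80 bp) and to the right (- strand, 40 to 60 bp), and the wildtype and V5 panels show no such pair.

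The question of whether Bapx1 touched these regions in fibroblasts at levels below a called peak was put to the NIH3T3 tags. Both sets of distal regions had been stripped of NIH3T3 peaks in the same way. Within 200 bp of the summit, the 370 regions held 992 NIH3T3 Bapx1 tags and 1089 V5 tags, each with a range from 0 to 10 or 11 per region and medians of 2 and 3. At least 3 NIH3T3 Bapx1 tags were found in 173 regions (46.8%, 41.6 to 52) and in 300 of the 837 regions lacking the motif (35.8%, 32.6 to 39.2). Over all 1207 distal embryo-only regions the share was 39.2%. The difference of 10.9 percentage points passed the test (two-sided Fisher's exact test over regions, p = 0.000429). The V5 control had at least 3 tags in 54.1% and 55.4% of the same regions (exact p = 0.661), and in 55% of all 1207. The V5 library was the deeper one, so its shares are set beside each other and not against those of Bapx1.

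Scaled for depth, NIH3T3 Bapx1 over V5 tags came to 1.27 in the regions with the motif (1.17 to 1.39) and to 1.1 in those lacking it (1.04 to 1.17). These ratios differed by Fisher's exact test on the tags (exact p = 0.00664), in which tags of 1 region count as independent. With no condition on NIH3T3 peaks the ratios were 1.48 and 1.23 (exact p = 0.000216), and the share was again higher with the motif (48.8% against 37.6%). The size of the difference depended on how it was counted. At a minimum of 2 or of 4 tags the shares were 64.6% against 58.7% (exact p = 0.0555) and 28.4% against 22.9% (exact p = 0.0502).

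The shares were also set out by the strength of the embryo peak. Among regions with a p above 1e-10, at least 3 NIH3T3 Bapx1 tags were found in 130 of 252 with the motif and 231 of 653 lacking it (51.6%, 45.2 to 57.9, against 35.4%, 31.7 to 39.2). This group was formed after the values were seen and is given with no test. Among those with a p of 1e-10 or less the shares were 36.4% of 118 and 37.5% of 184 (exact p = 0.903). Whether the difference between the sets changed with peak strength was not tested. The V5 shares were 54.8% and 55.4% among the weaker peaks, and 52.5% and 55.4% among the stronger. The 10 strongest regions had 0 to 6 NIH3T3 Bapx1 tags and 0 to 5 V5 tags.

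**Figure D4:**
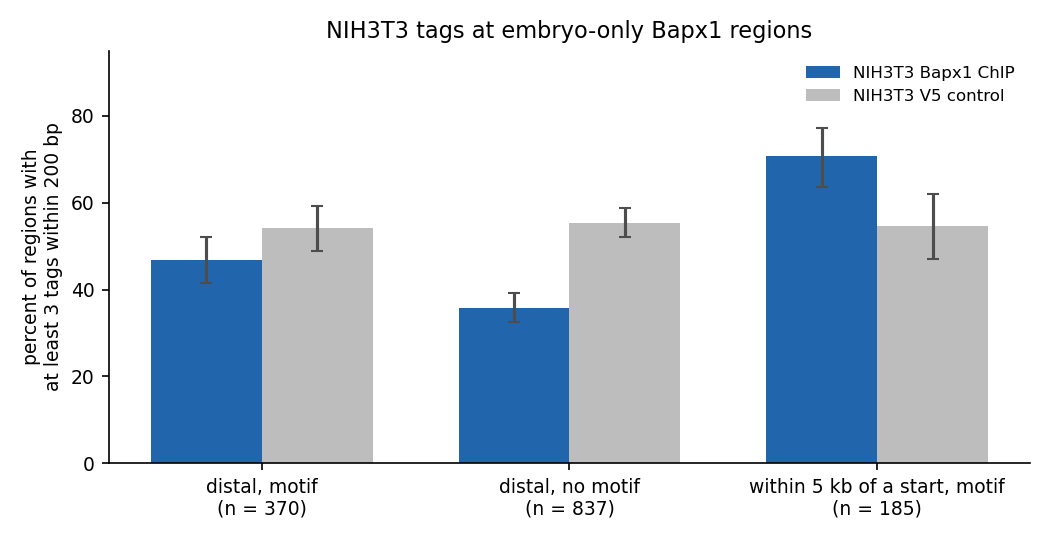
Percent of regions with at least 3 tags within 200 bp of the summit in NIH3T3 Bapx1 (blue) and the V5 control (grey), with exact 95% binomial intervals, for embryo-only peaks in 3 sets. The Bapx1 share is 46.8% in the distal regions with the motif, between 35.8% in the distal regions lacking it and 70.8% in peaks with the motif near a start, while the V5 shares are 54.1%, 55.4% and 54.6%.

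Embryo-only peaks with the motif within 5 kb of a start had more NIH3T3 signal than the distal regions. At least 3 Bapx1 tags were found in 131 of 185 such peaks (70.8%, Fisher's exact test against the distal regions, p = 7.92e-08), and the scaled ratio to V5 was 2.08 (1.88 to 2.31). Both sets had been stripped of NIH3T3 peaks, which were called from these tags, and were not compared without that condition. The V5 shares were 54.6% and 54.1% (exact p = 0.928). The 2 sets also differed in base content. The median GC content was 53.5% near a start and 47.5% in the distal regions, and 14.6% and 31.4% of windows held no CpG. Peaks near a start that lack the motif were not counted. Of the peaks near a start with the motif, 10.8% had 2 or more matches, against 15.4% of the distal regions (exact p = 0.153). The 21 distal embryo peaks with the motif that did have a NIH3T3 peak gave a ratio of 4.86 (3.68 to 6.51), by their choice.

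The strand order of the NIH3T3 tags was a second measure, read from tags at the same summits as the counts above. It was chosen after the data had been seen. At the summits of the 370 regions, 63% of 678 NIH3T3 Bapx1 tags were facing (59.2 to 66.6), against 51.3% of 674 V5 tags (47.5 to 55.2). At the summits lacking the motif, 55.4% of 1293 NIH3T3 Bapx1 tags were facing (52.6 to 58.1), and 52.3% of V5 tags. The intervals count tags of 1 region as independent. The NIH3T3 Bapx1 share was higher with the motif than without it, and no test of this is given. Around the single match of 313 regions it was 63.1% in NIH3T3 Bapx1 (58.9 to 67.1) and 52.8% in V5 (48.6 to 57.1). In the 210 of them with a p above 1e-10 the facing share of NIH3T3 Bapx1 was 65% (60.1 to 69.7), against 52.6% in V5 (47.5 to 57.7). In the 103 with a smaller p it was 58.3% (50.2 to 66.2), against 53.3% in V5 (45.4 to 61), so that the intervals overlapped. Bapx1 and V5 are 1 library each, and their facing shares are set side by side with no test.

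Within the regions, the NIH3T3 signal was split after the data had been seen by 5 features: a TGAGTG match, a match followed by G, a match also preceded by C or T, 2 or more matches, and location inside a gene. The largest differences were found for the form of the motif and the number of matches. The 144 regions whose matches were all TAAGTG had at least 3 NIH3T3 Bapx1 tags in 54.9% (46.4 to 63.2), and the 226 with a TGAGTG match in 41.6% (35.1 to 48.3). This gave p = 0.0141 by Fisher's exact test, and 0.0513 after adjustment over the 5 splits. The V5 shares were 49.3% and 57.1% (exact p = 0.164). The 57 regions with 2 or more matches had such tags in 61.4%, against 44.1% of the 313 with 1 (exact p = 0.0205, adjusted 0.0513). For this split the V5 shares were 57.9% and 53.4% (exact p = 0.565). The other 3 splits had unadjusted p between 0.378 and 0.55.

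The summed ratio of NIH3T3 Bapx1 to V5 was 1.6 in the TAAGTG regions (1.39 to 1.83) and 1.09 in those with TGAGTG (0.977 to 1.23). It was 1.48 in the regions with 2 or more matches (1.2 to 1.82) and 1.23 in those with 1 (1.12 to 1.36). These ratios rest on the same tags as the shares that singled out the splits, so they are given as a description with no test. Around single matches, 71.5% of the NIH3T3 Bapx1 tags at TAAGTG were facing (65.9 to 76.7), and 54% at TGAGTG (47.8 to 60.1). The V5 shares were 55.6% and 50.9%. These shares too were compared for the form alone, after its tag counts had been seen, and no test of them is given. In the embryo both forms had nearly the same values, with Bapx1 to wildtype ratios of 4.58 and 4.42, and facing shares of 76% and 76.5%. In the peaks with the motif near a start, the NIH3T3 ratios were 1.96 for TAAGTG and 2.22 for TGAGTG (exact p = 0.227). In the embryo peaks shared with NIH3T3 cells they were 6.21 and 5.65, given with no test because a NIH3T3 peak chose this set. Whether the forms differed more in the distal regions than in these sets was not tested.

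The 6 regions with at least 9 NIH3T3 Bapx1 tags had 10, 10, 9, 9, 9 and 9 of them, against 4, 4, 5, 2, 5 and 1 V5 tags. These regions were picked by their NIH3T3 Bapx1 tags, so the excess over V5 follows from the choice. The first lay downstream of Rgs3 (chr4:62421977-62422313), which encodes a regulator of G protein signalling, and had 30 embryo Bapx1 and 6 wildtype tags. The second lay in an intron of Prkch (chr12:74876048-74876384), a protein kinase C gene, with Hif1a, the oxygen-responsive transcription factor, as the nearest protein-coding start at 126160 bp. It had 28 embryo Bapx1 tags and 7 wildtype tags. The others had Armc2 (chr10:41847636-41847997), 1700112E06Rik (chr14:23748935-23749199), Rasgef1c (chr11:49745448-49745789) and Phlda1 (chr10:111109904-111110233) as nearest genes. Of these 6 regions, 4 held a TAAGTG match only, that in Prkch a TGAGTG match only, and that near Phlda1 1 match of each form. Among all 370 regions, 144 (38.9%) held TAAGTG matches only. The forms in these 6 rest on the same tags as the split by form and add nothing to it. The embryo peaks of these 6 regions were of middling strength, with 18 to 29 tags in the authors' list. Of the regions with 3 matches, the strongest by p lay upstream of Ptpn13 (chr5:103816519-103817106), which encodes a protein tyrosine phosphatase, with 45 embryo and 2 wildtype tags, and in an intron of Ldb2 (chr5:44888163-44888625), which encodes a LIM domain binding cofactor, with 33 and 4.

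Motifs of other factors were then counted in the same windows of 50 bp to either side of the summit. Of 17 motifs, 1 differed between the regions and the distal regions lacking the Bapx1 motif. The Sox motif, in its form with 2 bases A or T, then CAA, then A or T, then G, on either strand, was less frequent, in 27 of 370 regions (7.3%) against 112 of 837 (13.4%, Fisher's exact test, p = 0.00232, adjusted 0.0394). It was found in 10.5% of all embryo peaks. Sox9 is the main activator of cartilage genes, and Sox proteins share this motif. In windows of 100 bp to either side the shares were 16.8% and 22.7% (adjusted exact p = 0.359), and among regions with a p of 1e-10 or less 11.9% and 16.8% (adjusted exact p = 0.839).

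**Figure D5:**
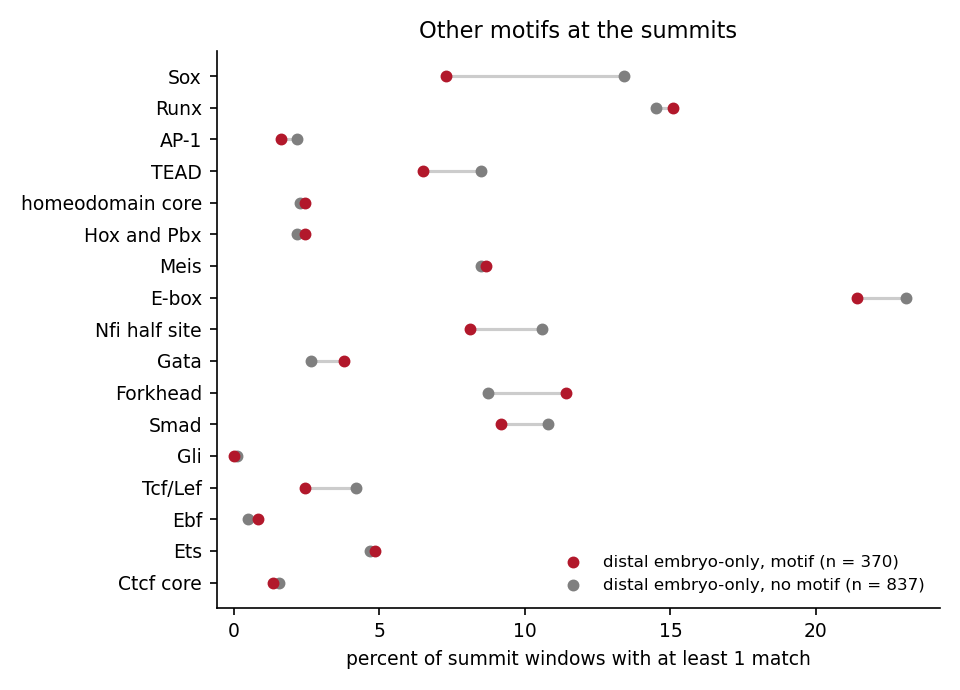
Percent of summit windows (50 bp to either side) with at least 1 match to each of 17 motifs in the 370 distal embryo-only regions with the Bapx1 motif (red) and the 837 lacking it (grey). The points lie close together except for the Sox motif, at 7.3% and 13.4%.

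The other 16 motifs had adjusted p-values of 0.781 or more. The E-box, to which basic helix-loop-helix factors bind, was searched as CAGCTG, in the form CATCTG, or in the form CAGATG. It was found in 21.4% of the regions and 23.1% of those lacking the motif (21.5% of all embryo peaks). The Runx motif (TGTGGT or TGCGGT) was found in 15.1% and 14.5% (13.1% of all). The forkhead motif (TGTTTAC or TGTTTAT) was found in 11.4% and 8.72% (7.89% of all), and the Meis motif TGACAG in 8.65% and 8.48% (8.13% of all). The homeodomain core TAATTA, which the Bapx1 motif does not contain, was found in 2.43% and 2.27% (1.63% of all). The AP-1 motif (TGAGTCA or TGACTCA), whose TGAGTCA form has the same first letters as TGAGTG, was found in 1.62% and 2.15% (1.88% of all). The GC content had a median of 47.5% in both distal sets.

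By annotation, 142 of the 370 regions lay in an intron, 4 in an exon and 224 between genes. The share inside a gene was 39.5%, against 36.6% of the distal regions lacking the motif (Fisher's exact test, p = 0.367). The distance to the nearest transcript start had a median of 66436 bp and reached 443282 bp. It was 25 to 50 kb in 127 regions, 50 to 100 kb in 125, 100 to 200 kb in 86 and 200 to 500 kb in 32. In the regions lacking the motif the median was 76462 bp, and 13 lay more than 500 kb away. The regions were spread over all autosomes, and the share of distal embryo-only peaks with the motif ran from 22.4% on chromosome 16 to 39.5% on chromosome 9. The nearest other region of the set was a median of 1468877 bp away, and 44 regions (11.9%) had another within 100 kb.

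The nearest protein-coding starts belonged to 341 genes, 316 of which had 1 region, 22 had 2, and 3 had more. The genes with several regions were named after the counts were seen. Aldh1a2 had 3, its intronic region with 104 tags and others at chr9:71165427-71165897 and chr9:71172038-71172188 with 35 and 12. Col23a1, which encodes a transmembrane collagen, had 3 intronic regions with 38, 68 and 16 tags. Gmds, which encodes a GDP-mannose dehydratase, had 4, with 26, 20, 30 and 20 tags. Another, with 19 tags, lay in a Gmds intron but nearest to the start of Foxc1 (chr13:32140506-32140778), a forkhead factor of somite and skeletal mesenchyme. The 5 regions of this locus spanned chr13:32140506-32609593. Of the distal regions lacking the motif, 2 were also nearest to Gmds, 1 to Aldh1a2 and 0 to Col23a1.

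Genes of 11 lists (293 of 295 names matched) were the nearest protein-coding gene of 33 regions (8.92%) and of 77 regions lacking the motif (9.2%). The sclerotome and somite patterning list had 6 regions (1.62%) against 4 (0.478%), and 0.571% of all embryo peaks. The strongest of them by p was nearest to Tbx18 (chr9:87457635-87458075, 55 embryo and 10 wildtype tags), a T-box factor of anterior somite compartments, at 168273 bp. The next were nearest to Pax3 (chr1:77975850-77976194, 31 and 3), the paired box factor of the dermomyotome, at 217424 bp, and to Foxd1 (chr13:99154067-99154470, 36 and 5), at 30082 bp. The cartilage matrix and chondrocyte list had 2 regions (0.541%). They were nearest to Col11a1 (chr3:113563244-113563677, 26 and 3), a fibrillar collagen chain of cartilage, at 169911 bp, and to Wwp2 (chr8:110019333-110019728, 23 and 7), a ubiquitin ligase gene, at 49561 bp. It had 4 regions (0.478%) among those lacking the motif, and 0.393% of all embryo peaks.

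The list of chondrogenic and skeletal transcription factors had 4 regions (1.08%) against 20 (2.39%), and 1.14% of all embryo peaks, nearest to Zeb2, Foxc1 and Trps1. The Hedgehog list had 0 regions (exact binomial interval up to 0.992%), against 8 (0.956%), and 0.5% of all embryo peaks. The FGF and PTHrP list had 0, with the same interval, against 2 (0.239%), and 0.286% of all embryo peaks. The BMP, GDF and TGF-beta list had 5 (1.35%) against 13 (1.55%), and 1.04% of all embryo peaks, nearest to Smoc2, Bmp2, Tgfb2, Tgfbr2 and Smad2. The strongest of these, downstream of Smoc2 (chr17:14647456-14647868), which encodes a matricellular protein, had 42 embryo and 2 wildtype tags. The Wnt list had 5 (1.35%) against 15 (1.79%), and 1.11% of all embryo peaks, nearest to Wnt11, Lrp5, Sfrp2 and Lef1. The vascular list had 1 (0.27%) against 1 (0.119%), and 0.143% of all embryo peaks, nearest to Vegfa. The neural list had 5 (1.35%) against 6 (0.717%), and 0.536% of all embryo peaks, among them Robo1, Dscam, Nrn1 and Sox2. The list of TALE homeobox cofactors had 4 (1.08%) against 3 (0.358%), and 0.428% of all embryo peaks, among them Pknox2 (chr9:36861783-36862132, 40 embryo and 8 wildtype tags), Irx4 and Irx6. These counts were too small to compare and were not tested, and the nearest start is a position, not evidence that Bapx1 acts on the gene.

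None of the 7 regions from which the study took its gel shift and reporter sequences was among the 370. For 5 of them the overlapping embryo peak lay within 25 kb of a start, at 123 to 15276 bp. The peak over the region chr15:83509181-83509280 was 46496 bp from a start but had 0 matches within 50 bp of its summit. The other peak was 152208 bp from a start and had 2 matches, but a NIH3T3 peak was centred 62 bp from it.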

How the data were processed

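Chromatin immunoprecipitation and sequencing of Bapx1 was analysed in 4 of 6 libraries, with 1 library per condition. In the deposited files, the authors give the position of each uniquely mapped tag of 35 bp on mm9, and the labels give 14 rounds of PCR. Per the file headers, the authors called the peaks with MACS against the control (p cutoff 1e-05), with the count of tags per peak, a score of 10 times -log10(p), the fold as a ratio to the local background, and the FDR in percent. No peak was called again. The aligner's version was not given in the sources used here.

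Summits were read against the NCBIM37 sequence and GENCODE transcripts, whose chromosome names and lengths match mm9. Tags were counted by their middle within 200 bp of a summit. NIH3T3 libraries held 2.4% (Bapx1) and 6.53% (V5) repeated tags, of which a single copy was counted. Ratios were scaled to tags on chromosomes 1 to 19, X and Y. The genome copy carries no mask for repeats, so repeats other than runs of GT or CA were not marked. Nearest genes are protein-coding starts, and RefSeq names served only to match older symbols.

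Fisher's exact test, two-sided, compared the shares at a threshold of 0.05, adjusted after Benjamini and Hochberg over 17 motifs, 3 base tests and 5 splits. Intervals at 95% are exact binomial (Clopper-Pearson) and cover counting error only, since PCR copies and tags of 1 region are not independent. Analyses used Python 3.11.15 and SciPy 1.17.1, and the motif search and the test were tested on simulated data. Alternatives changed the distance, the NIH3T3 condition, the windows, the stringency of the peaks, the minimum of tags and the repeats.

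Named regions were the 10 with the smallest p, the 5 with the most matches, the 5 with the most NIH3T3 Bapx1 tags and 1 tied with the fifth (added after the values were seen), those under the study's gel shift sequences, those nearest each limit, and up to 4 genes per list by p. The regions, lists and comparisons were chosen with earlier results of these data known. Sox9 and IgG libraries were not used here. Some regions and genes that the rule names are not reported here.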

Additional observations from a re-analysis of the deposited data

How the results depend on the processing

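The number of distal embryo regions with the motif was 370, and under the alternatives it was 243 for summits over 50 kb from a start, 208 with the motif within 25 bp, 118 with a p of 1e-10 or less and 55 with an FDR of 50% or less. The other 6 alternatives moved it by less than 1.5 times.

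The share with at least 3 NIH3T3 Bapx1 tags was 10.9 percentage points higher with the motif than without it. This difference was 5.93 points at a minimum of 2 tags and 5.44 at 4, both with p above 0.05, and -1.06 points among peaks with a p of 1e-10 or less. The NIH3T3 Bapx1 to V5 ratio was 1.16 times as high with the motif, 1.05 times with windows of 500 bp to either side (exact p = 0.158), and 0.888 times among peaks with a p of 1e-10 or less (exact p = 0.27). Without the 5 regions with the motif that had the most NIH3T3 Bapx1 tags it was 1.12 times as high (exact p = 0.0334), and without the 5 with the most in each set 1.15 times (exact p = 0.0126). Both alternatives, those without GT or CA repeats, and those with no condition on NIH3T3 peaks were chosen after seeing the data.

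The share of matches within 10 bp of the summit exceeded that in the flanks by 2.38 points, and fell short by -1.45 with flanks at 1000 bp. The share followed by G exceeded the flanks by 5.85 points, by 9.32 with flanks at 1000 bp, 7.44 with protein-coding starts and 8.88 with the nearest match only, all 3 past the threshold after adjustment, and was -5.36 points different at a p of 1e-10 or less. The share preceded by C or T exceeded the flanks by 9.03 points, and passed after adjustment with flanks at 1000 bp (14 points), protein-coding starts (9.79), the nearest match only (11.3) and without repeats (11.6). The share of TGAGTG differed from the flanks by -1.47 points, by 1.24 with flanks at 1000 bp and by 2.47 at a p of 1e-10 or less. Of 17 other motifs 1 passed, 0 with windows of 100 bp to either side and 0 at a p of 1e-10 or less. In these 2 settings the Sox motif had unadjusted p of 0.0211 and 0.252 by Fisher's exact test. The cause of these changes was not tested.

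No paired analysis was possible because each condition has 1 library. No test was made of single regions, whose NIH3T3 Bapx1 tags had a median of 2.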
